A study of Mus musculus with 6 samples.

Results

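The integrin chains of RAW264.7 macrophages and the cytoplasmic adaptors that tie integrins to actin were examined, 36 genes of the 49315 in the deposited count table. They were chosen by symbol and comprise 5 chains of the leukocyte β2 and β7 integrins, 11 chains of the β1 and αv family and 20 adaptors. The table holds RNA-seq counts from RAW264.7, a mouse macrophage line whose genotype is given as WT, with 3 libraries from cells treated with SKI-II at 4 μg/mL and 3 from cells given an equivalent amount of its vehicle, DMSO, all after 24 h. The compound SKI-II is known to inhibit sphingosine kinases. The labels name no infection for these libraries, and all of them come from this 1 cell line.

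Integrins are heterodimers of 1 α and 1 β chain that bind the extracellular matrix or receptors on other cells. Their affinity is set from inside the cell, where talin and kindlin bind the tail of the β chain. Bound integrins gather kinases, scaffolds and actin-binding proteins into focal adhesions or, in macrophages, podosomes. In leukocytes the β2 chain is the common partner of several α chains that serve firm adhesion, migration and uptake of opsonized particles.

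The 6 libraries held 12495957 to 20050677 counts, and 12274 genes had enough counts to be tested. All 12 macrophage markers were among them, and by the edgeR test 2 of them were higher with SKI-II, 3 were lower and 7 were not called. The epithelial markers were at or near 0 in all libraries, whereas among the B-cell markers Ms4a1 was at 0 but Ighm was at 276, 281 and 184 normalized counts in DMSO and at 1.12, 0.954 and 0 with SKI-II. Replicate numbers come from the labels, which do not say whether the libraries are separate cultures, so p-values measure the spread between these libraries, which may be technical.

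Of the 36 genes, 29 were tested, and at an adjusted p below 0.05 (edgeR, quasi-likelihood test, Benjamini-Hochberg) 7 were higher and 6 lower with SKI-II. Over all tested genes 18.4% were called higher and 19.7% lower, 38% in all, against 44.8% of the tested members. A log2 fold change past 1 in size was seen for 4 members, Zyx and Bcar1 upwards and Itgb2 and Itgax downwards, where 8.28% and 7.44% of all tested genes passed it in each direction. The groups did not overlap for 16 of the 29, with SKI-II above in 9 and below in 7, beside 50.3% of all tested genes. The median log2 fold change of the members was 0.02, and the median of its absolute size was 0.37 against 0.41 over all tested genes. These libraries are bulk RNA, in which fewer cells carrying a transcript and less of it per cell cannot be told apart.

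**Figure D1:**
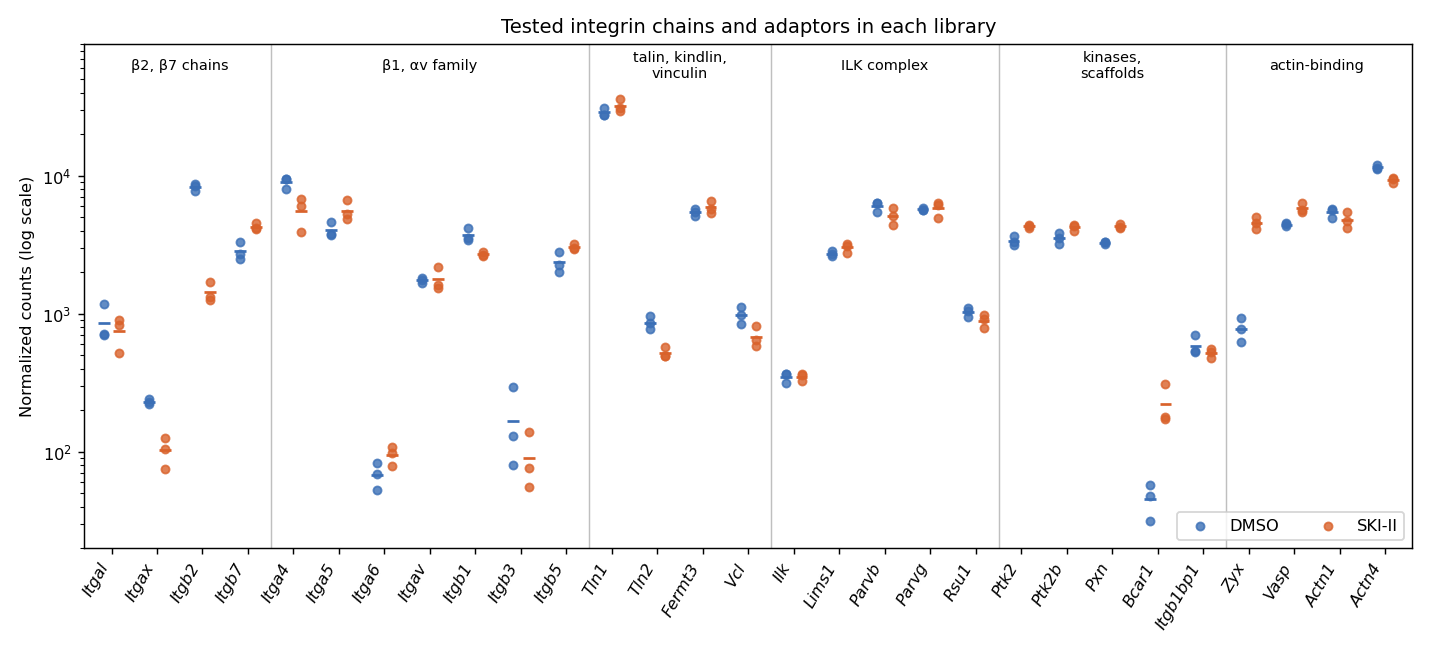
Normalized counts (log axis) of the 29 tested members in each of the 6 libraries, grouped by role, with DMSO in blue, SKI-II in orange and horizontal marks at the group means. Itgb2 and Itgax lie lower and Zyx and Bcar1 higher in all 3 SKI-II libraries than in any DMSO library, while the members of the ILK complex overlap.

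The β2 chain showed the largest decrease among the members. Itgb2 (CD18), at chr10:77530252-77565708 of GRCm38, encodes the chain on which αL, αX and the other β2-pairing α chains depend to reach the cell surface. It stood at 8380, 7747 and 8761 normalized counts in the DMSO libraries and at 1315, 1700 and 1258 in the SKI-II libraries. Every SKI-II library was below every DMSO library, and the nearest values of the groups, 1700 and 7747, were far apart. The mean fell from 8296 ± 513 to 1424 ± 241 (SD, n = 3 each), 5.82-fold lower, with a log2 fold change of -2.54 (SE 0.14, 95% interval -2.86 to -2.22) and an adjusted p of 7.5e-06. It ranked 78th from the lowest log2 fold change among the 12274 tested genes, and with any 1 library left out or by any other method tried it lay between -2.69 and -2.46.

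Itgax (CD11c), the αX chain that pairs with β2 and is known as a marker of dendritic cells and of some macrophages, lies at chr7:128129547-128150657. It was at 228, 240 and 223 normalized counts in DMSO and at 126, 75.4 and 104 with SKI-II. The groups did not overlap, and the spread was wider among the SKI-II libraries. Its log2 fold change was -1.18 (SE 0.22, adjusted p 0.00245), 2.26-fold lower, and -0.997 without SKI-II replicate 2, with an adjusted p of 0.0108.

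Itgal (CD11a), the αL chain of the lymphocyte function-associated antigen, was at 697, 715 and 1167 in DMSO and at 518, 829 and 902 with SKI-II. The ranges overlapped, and DMSO replicate 3 held the highest value of all. The log2 fold change was -0.20 (95% interval -0.75 to 0.35, adjusted p 0.566), so a decrease of the size seen for Itgb2 lies outside the interval. Per length of merged exons, the ratio of Itgb2 to Itgal was 25.9, 23.3 and 16.2 in DMSO and 5.46, 4.41 and 3.00 with SKI-II.

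Itgb7, which pairs with α4 or αE in receptors of gut-homing lymphocytes, rose. It lies at chr15:102215995-102231944 and was at 2475, 2691 and 3325 normalized counts in DMSO and at 4090, 4508 and 4166 with SKI-II. All SKI-II libraries lay above all DMSO libraries, and the log2 fold change was 0.59 (SE 0.14, adjusted p 0.00762). Its partner αE was nearly absent, with 6, 1 and 2 raw counts of Itgae in DMSO and 0, 3 and 1 with SKI-II, and was not tested. Of the 5 chains of this group, 4 were tested, 1 was higher, 2 were lower and the median log2 fold change was -0.69, against 0.00 over all tested genes.

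The macrophage markers did not move in 1 direction. Lyz2 (lysozyme), Adgre1 (F4/80) and Mpeg1 (perforin-2) fell, with log2 fold changes of -1.26 (adjusted p 0.0172), -0.92 (0.00451) and -0.60 (0.00779). Cd14, the co-receptor for lipopolysaccharide, and Fcgr1, the high-affinity IgG receptor, rose, with log2 fold changes of 1.41 (adjusted p 0.000273) and 2.17 (1.6e-05). The other 7 were not called, among them Csf1r at -0.12, Cd68 at -0.18 and Spi1, the gene of the myeloid factor PU.1, at -0.11. The summed level of the 12 markers was 170895 to 238021 normalized counts in the DMSO libraries and 120089 to 157558 in the SKI-II libraries, but the decrease came from Lyz2, and the other 11 summed to 80345 to 87421 with DMSO against 90327 to 96469 with SKI-II. Among those 11 the largest rise in mean was that of Cd14, from 7668 ± 1644 to 20424 ± 2132, and no sum was taken without it. The part of these marker genes' movement in the lower Itgb2 and Itgax was not tested.

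Among the β1 and αv family, 7 of 11 chains were tested, 1 was higher, 2 were lower and the median log2 fold change was 0.03. Itgb1, the β1 chain shared by the receptors for fibronectin, laminin and collagen, lies at chr8:128685654-128733200. It was at 3392, 3543 and 4202 normalized counts in DMSO and at 2662, 2802 and 2619 with SKI-II. The groups did not overlap and the SKI-II libraries lay close together. Its log2 fold change was -0.46 (SE 0.12, adjusted p 0.0142), a smaller decrease than that of Itgb2.

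The α4 and α5 chains, both of which pair with β1 and bind fibronectin, moved in opposite directions. Itga4, also the chain of the receptor for the endothelial ligand VCAM-1, was at 8022, 9476 and 9447 in DMSO and at 3935, 6046 and 6757 with SKI-II. All SKI-II values were lower, and SKI-II replicate 1 was the lowest. Itga4 had a log2 fold change of -0.69 (SE 0.19, adjusted p 0.0189), and the adjusted p was 0.0685 without DMSO replicate 2.

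Itga5, the α chain of the classical fibronectin receptor, lies on chromosome 15 like Itgb7. It was at 3719, 3791 and 4639 in DMSO and at 6673, 4817 and 5238 with SKI-II. The groups did not overlap, but 4639 in DMSO replicate 3 came close to 4817 in SKI-II replicate 2. The log2 fold change of 0.46 (SE 0.16, adjusted p 0.0411) did not pass without DMSO replicate 1 (adjusted p 0.103), without DMSO replicate 2 (0.162), nor with SKI-II replicate 1 (0.12) or 3 (0.0519) left out.

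The αv chain, which pairs with β1, β3, β5 and other β chains in receptors for vitronectin, was at 1670, 1818 and 1744 normalized counts of Itgav in DMSO and at 2175, 1627 and 1537 with SKI-II. The ranges overlapped, and SKI-II replicate 1 held the highest value. Itgav had a log2 fold change of 0.03 (95% interval -0.30 to 0.36, adjusted p 0.896). Of its partners, Itgb5 had all 3 SKI-II libraries above the DMSO libraries, with a log2 fold change of 0.37 and an adjusted p of 0.0575, which fell to 0.0141 without DMSO replicate 3. Itgb3, the β chain of osteoclasts and platelets, ran from 79.6 to 294 in DMSO and from 55.9 to 139 with SKI-II, a log2 fold change of -0.88 (95% interval -1.93 to 0.18, adjusted p 0.171). Its value rested on single libraries, with a log2 fold change of -0.18 (adjusted p 0.751) when DMSO replicate 3 was left out, -1.34 (0.0607) when SKI-II replicate 3 was and -1.23 (0.0362) when DMSO replicate 1 was. Itga6, a laminin receptor chain, had a log2 fold change of 0.48 (adjusted p 0.172) at under 110 normalized counts in every library.

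A further 7 members did not reach the filter on low counts. Besides Itgae, these were Itga1, with 2 counts in SKI-II replicate 1 alone, Itga2 and Parva with 1 count each, and Itga3, Itga9 and the kindlin gene Fermt2 with 0 in all 6 libraries. A count of 0 among the 96536322 counts of the 6 libraries allows up to 0.0311 CPM (counts scaled to a common library size), taking 3 counts as the limit, which covers counting error only.

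**Figure D2:**
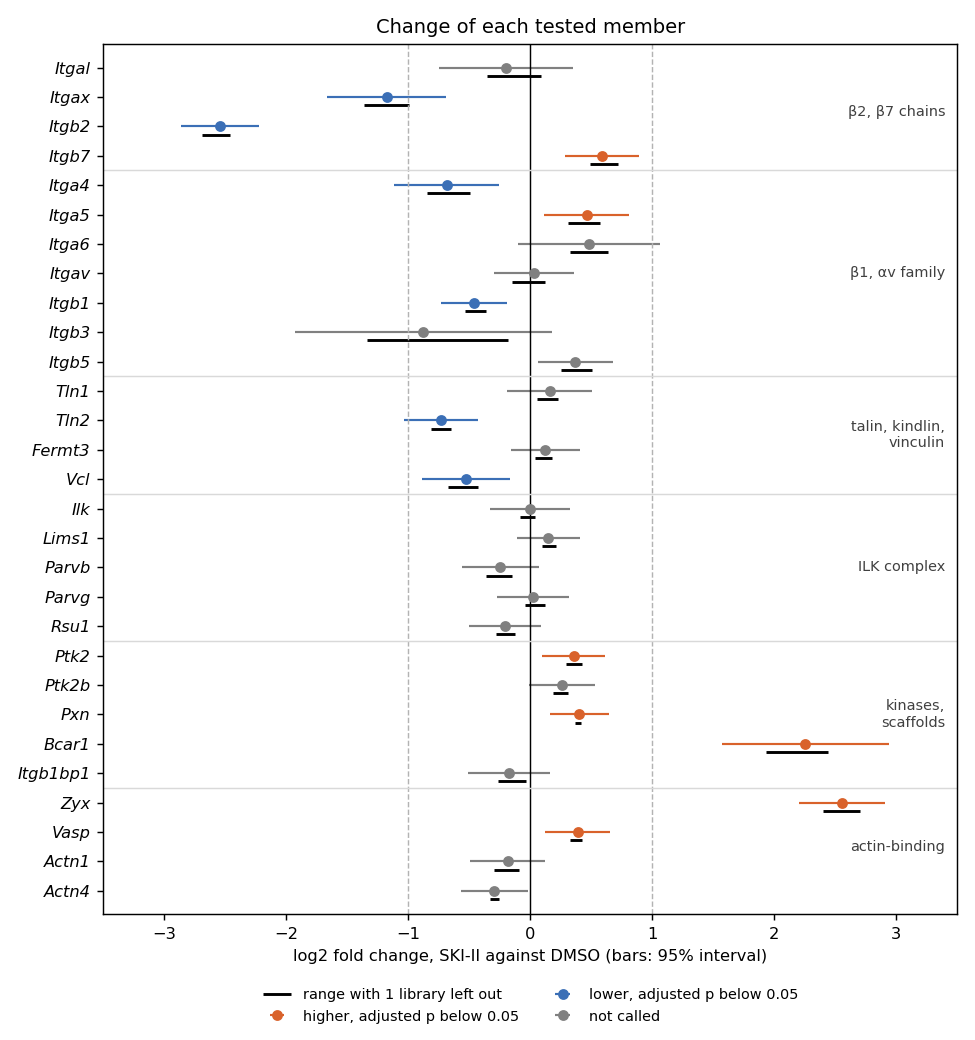
Log2 fold change of each tested member, SKI-II against DMSO, with its 95% interval as a coloured line and, in black under it, the range over the 6 fits that each leave out 1 library. Orange marks members called higher, blue those called lower and grey those not called, and dashed lines stand at -1 and 1. Zyx, Bcar1 and Itgb2 stand apart from 0 by more than 1.9 in every fit, and the intervals of the 5 ILK complex members all include 0.

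Because chains pair, their proportions were also compared. Counts were scaled for library size and divided by the length of merged exons, and each chain was given as a share of the summed level of the α or β chains listed here, so chains outside the list are not in the sum. The share of Itgb2 among the β chains was 54.4%, 50.4% and 48.4% in DMSO and 12.6%, 15.0% and 11.8% with SKI-II, a difference of -37.9 percentage points. In DMSO it was the leading β chain, and with SKI-II it was the smallest of the 4 main ones in every library. Itgb7 went from 19.1% ± 1.28 to 43.4% ± 0.356 (SD, n = 3 each) and led the β chains in all SKI-II libraries. Itgb5 took 12.4% ± 1.02 in DMSO and 24.3% ± 1.83 with SKI-II.

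The share of Itgb1 was 17.01% ± 0.488 in DMSO and 18.7% ± 0.384 with SKI-II, higher in all 3 SKI-II libraries, although its level was lower. The sum these shares are taken of differed between the groups. The summed β level was 333 ± 32.0 CPM per kilobase in DMSO and 220 ± 9.79 with SKI-II, a ratio of 0.662. The summed α level was 113 ± 11.6 in DMSO and 115 ± 7.61 with SKI-II, with overlapping libraries.

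Among the α chains Itga5 held 45.2% ± 1.86 in DMSO and 61.1% ± 7.01 with SKI-II, while Itga4 held 35.5% ± 2.31 and 21.9% ± 6.50. The ratio of Itga5 to Itga4 was 1.31, 1.13 and 1.39 in DMSO and 4.81, 2.26 and 2.20 with SKI-II, with SKI-II replicate 1 the highest. Which of these chains led in DMSO turned on the length used. Divided by the longest transcript, the ratio was 1.03, 0.885 and 1.09 in DMSO and 3.75, 1.76 and 1.71 with SKI-II, and with no division it was 0.464, 0.400 and 0.491 in DMSO and 1.70, 0.797 and 0.775 with SKI-II. Under each of the 3 the SKI-II libraries were above the DMSO libraries. Itgax went from 2.67% ± 0.315 to 1.14% ± 0.216. For Itgal (7.13% ± 1.48 and 6.27% ± 1.93) and Itgav (9.004% ± 0.813 and 8.97% ± 1.33) the groups overlapped. The 7 chains whose groups did not overlap each had a two-sided exact permutation p of 0.1, the smallest that 3 against 3 libraries allows, and 0.129 after Benjamini-Hochberg adjustment over 9 chains, so no share could pass the threshold in this design.

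**Figure D3:**
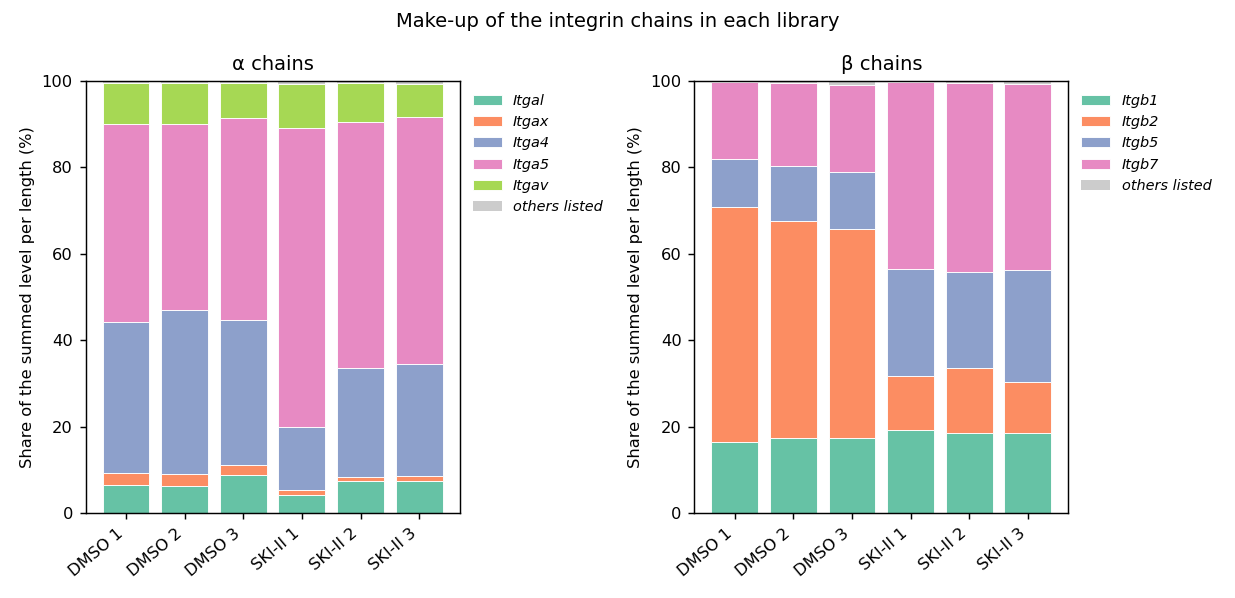
Share (%) of each integrin chain in the summed level per length of the α chains (left) and β chains (right), as stacked bars for each of the 3 DMSO and 3 SKI-II libraries. Itgb2 takes 48.4% to 54.4% of the β level in DMSO and 11.8% to 15.0% with SKI-II, and Itgb7 is the largest β chain in each SKI-II library.

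Of the 20 adaptors 18 were tested, 5 were higher and 2 lower, and the median log2 fold change was 0.07. The first group are the proteins that bind β tails and their partner vinculin. Tln1, the main talin, was at 27680, 31150 and 27380 normalized counts in DMSO and at 36240, 29190 and 30760 with SKI-II. The ranges overlapped, and the log2 fold change was 0.16 (95% interval -0.19 to 0.50, adjusted p 0.458). Per length, Tln1 held the highest mean level of all members in both groups, and in DMSO its range overlapped with that of Itgb2.

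Fermt3, the kindlin of blood cells, was at 5713, 5105 and 5421 in DMSO and at 5376, 6564 and 5755 with SKI-II. The ranges overlapped, and the log2 fold change of 0.12 (95% interval -0.16 to 0.41, adjusted p 0.479) was not called. For both genes the interval includes 0.

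Tln2, the second talin, was at 781, 849 and 960 normalized counts in DMSO and at 494, 491 and 574 with SKI-II. All SKI-II libraries were lower, with a log2 fold change of -0.73 (SE 0.14, adjusted p 0.00244). Vcl, the gene of vinculin, which links talin to actin, was at 1122, 970 and 836 in DMSO and at 808, 643 and 585 with SKI-II. The nearest values of the groups, 836 and 808, were close. Its log2 fold change was -0.53 (SE 0.16, adjusted p 0.0283), and it was not called without DMSO replicate 1 (adjusted p 0.0747), DMSO replicate 2 (0.0772), or either SKI-II replicate 2 (0.0983) or 3 (0.0820). Of the exon bases of Vcl, 25.5% are shared with Ap3m1 on the other strand, whose log2 fold change was 0.34 (adjusted p 0.0478). Whether counting used strand is not given in the sources read, and reads of the pair in that stretch cannot be told apart.

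The complex of the integrin-linked kinase joins β tails to actin through PINCH and parvins. None of its 5 tested members was called by edgeR's quasi-likelihood test, 0 had an unadjusted p below 0.05, and DESeq2 and limma-voom called 0 as well. The log2 fold changes were 0.00 for Ilk, 0.15 for Lims1 (PINCH-1), -0.25 for Parvb, 0.02 for Parvg and -0.21 for Rsu1, which binds PINCH. The 95% interval ran from -0.33 to 0.33 for Ilk, the widest of the 5, and from -0.56 to 0.07 for Parvb. For Ilk, 76.7% of exon bases are shared with Taf10 on the other strand, whose log2 fold change was -0.12 (adjusted p 0.55). A second PINCH gene, Lims2, is not among these members and was counted with the other adaptors below. It was higher, at 396 ± 70.9 normalized counts in DMSO and 688 ± 156 with SKI-II (log2 fold change 0.80, adjusted p 0.0105).

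Among the kinases and scaffolds of adhesions, 3 of 5 were higher and 0 lower by edgeR's quasi-likelihood test. Also 0 were lower at an unadjusted p below 0.05, by DESeq2 and by limma-voom. By the edgeR test, 18.4% of all tested genes were called higher and 19.7% lower. Bcar1 (p130Cas), a scaffold that is phosphorylated when stretched and recruits Crk, lies at chr8:111710474-111743809. It was at 57.3, 31.6 and 47.5 normalized counts in DMSO and at 308, 173 and 179 with SKI-II. The lowest SKI-II library was more than 3 times the highest DMSO library, and SKI-II replicate 1 was the highest. The log2 fold change was 2.25 (SE 0.31, 95% interval 1.57 to 2.94, adjusted p 0.000467), 4.77-fold higher, and ranged from 1.93 to 2.44 over the other settings. Even with SKI-II its level per length, 3.01 ± 1.04 CPM per kilobase, was below that of Pxn, 32.8 ± 1.06.

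Ptk2, the focal adhesion kinase, was at 3121, 3288 and 3665 in DMSO and at 4378, 4183 and 4343 with SKI-II. The groups did not overlap. The log2 fold change of 0.36 (SE 0.12, adjusted p 0.0344) held, among the fits that leave out a library, only without DMSO replicate 3. The adjusted p was 0.109 without DMSO replicate 1, 0.15 without DMSO replicate 2 and 0.0638, 0.0782 and 0.0766 with SKI-II replicate 1, 2 or 3 left out.

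Ptk2b (Pyk2), the related kinase abundant in macrophages and osteoclasts, was at 3855, 3204 and 3515 in DMSO and at 4377, 3986 and 4287 with SKI-II. All SKI-II libraries were above all DMSO libraries, yet the log2 fold change of 0.26 (95% interval -0.01 to 0.53, adjusted p 0.118) was not called. Whether the 2 kinases differ in response was not tested, and their intervals overlap.

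Pxn, the gene of paxillin, a scaffold for both kinases, was at 3174, 3302 and 3307 in DMSO and at 4189, 4462 and 4280 with SKI-II. The replicates of each group lay close together. The log2 fold change was 0.40 (SE 0.11, adjusted p 0.0154), and its adjusted p was 0.0771 when DMSO replicate 2 was left out and 0.063 when SKI-II replicate 2 was. Itgb1bp1 (ICAP-1), which binds the β1 tail in competition with talin, had a log2 fold change of -0.17 (adjusted p 0.4).

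Zyx, the gene of zyxin, a LIM protein that gathers at stressed actin fibres and recruits VASP, rose most among the members. It lies at chr6:42349630-42360213 and was at 620, 781 and 929 normalized counts in DMSO and at 4092, 4556 and 5028 with SKI-II. Every SKI-II library was above every DMSO library. The mean went from 776 ± 155 to 4559 ± 468 (SD, n = 3 each), 5.87-fold higher, with a log2 fold change of 2.55 (SE 0.16, 95% interval 2.20 to 2.91) and an adjusted p of 9.1e-06. Zyx ranked 163rd from the highest log2 fold change of the 12274 tested genes, and Bcar1 223rd.

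Vasp, which promotes actin filament growth and is bound by zyxin, was at 4288, 4468 and 4522 in DMSO and at 5440, 6323 and 5607 with SKI-II. The groups did not overlap, and the log2 fold change was 0.39 (SE 0.12, adjusted p 0.0272). It was not called without DMSO replicate 1 (adjusted p 0.0784), DMSO replicate 2 (0.111) or SKI-II replicate 2 (0.117). Per length, the ratio of Zyx to Vasp was 0.0702, 0.0849 and 0.0997 in DMSO and 0.365, 0.35 and 0.435 with SKI-II.

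The α-actinins, which crosslink actin filaments and bind β tails, were not called. Actn4 had all SKI-II libraries below the DMSO libraries, with a log2 fold change of -0.29 (adjusted p 0.0847), and Actn1 had -0.19 (adjusted p 0.324). Per length, Itgb2 moved from the 2nd to the 16th mean level among the 36 members, Zyx from the 20th to the 11th and Vasp from the 5th to the 2nd. With the longest transcript as the length these became the 3rd to the 18th, the 21st to the 7th and again the 5th to the 2nd. With SKI-II the range of Itgb2 overlapped with its neighbours Pxn and Itga4, and that of Zyx with Itgb5 but not with Itgb1.

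Promoters from RefSeq (GRCm38.p6) were searched for short motifs, and 26 of the 36 members had an entry. Of the 4 members past a log2 fold change of 1, Itgax, Zyx and Bcar1 have an entry. In the 250 bases before the RefSeq start, Zyx, which rose, and Itgax, which fell, each held 1 match to the AP-1 motif TGANTCA, 121 bases before that start in Zyx and 56 in Itgax. The RefSeq start of Zyx lies 198 bases after the first base of the gene in GENCODE, given above, so its match is upstream of the RefSeq start but inside the GENCODE gene. The stretches around the matches that lie outside annotated UTRs are shown, with the match in capitals, 74 bases at chr6:42349706-42349779 for Zyx and 247 bases at chr7:128129300-128129546 for Itgax, both on the + strand.
Zyx: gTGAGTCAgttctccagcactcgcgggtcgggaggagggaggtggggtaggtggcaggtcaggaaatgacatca
Itgax: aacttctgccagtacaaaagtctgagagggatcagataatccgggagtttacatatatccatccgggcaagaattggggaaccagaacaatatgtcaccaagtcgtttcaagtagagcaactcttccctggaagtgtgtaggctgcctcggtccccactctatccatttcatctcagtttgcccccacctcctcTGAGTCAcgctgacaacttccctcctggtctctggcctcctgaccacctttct

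The pattern TGANTCA reads the same on both strands apart from N and was found in 6.75% of 32851 promoters and in 4.46% of 11741 promoters of tested genes, over the same 250 bases. The other motifs searched on both strands were the CArG box of serum response factor (1.47% of all promoters), GAGGAAGT of PU.1 (2.44%) and TGACNNNGC of the antioxidant response element (10.2%), and none of them matched in the windows of Zyx or Itgax. Neither of the 2 windows of Bcar1 held any of the 4. Among the 21 tested members with an entry, TGANTCA matched in Actn4, Itgax and Zyx, TGACNNNGC in Itgb1, Lims1 and Parvg, GAGGAAGT in Itgav and Lims1, and the CArG box in Vcl. A match is a run of letters, and the gene that rose and the gene that fell share this one.

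The rest of the adhesion machinery was described with 7 lists of 139 genes, of which 108 were tested, 25 were higher and 26 lower, with a median log2 fold change of -0.06. The share called, 47.2%, stands beside 38% of all tested genes, with 23.1% higher and 24.1% lower beside 18.4% and 19.7%. The counts of each list below stand beside these same shares of all tested genes. Among the other integrin chains, 3 of 9 were tested and 2 were higher. Itga7, a laminin receptor chain of muscle, rose from 265 ± 24.0 to 680 ± 125 normalized counts (SD, n = 3 each, log2 fold change 1.36, adjusted p 0.000266), and Itga8, another chain that pairs with β1, rose from 15.1 ± 3.27 to 55.3 ± 25.6 (log2 fold change 1.86, adjusted p 0.00588).

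Of 22 integrin ligands 9 were tested, 1 was higher and 4 were lower. The collagen gene Col4a1 was at 3, 2 and 0 raw counts in DMSO and at 18, 25 and 22 with SKI-II, a log2 fold change of 3.45 (SE 0.77, adjusted p 0.00231) that rests on few counts. Tnc, the gene of tenascin-C, had a log2 fold change of -1.65 (adjusted p 0.0433), which was -2.83 without SKI-II replicate 3 and had an adjusted p of 0.148 when DMSO replicate 2 was left out, and of 0.132 and 0.142 for SKI-II replicate 1 and 2 in turn. The laminin chain gene Lamb2 fell from 343 ± 47.4 to 198 ± 20.3 (log2 fold change -0.80, adjusted p 0.00522).

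The genes that switch integrins on or off from inside the cell had 1 of 19 tested members higher and 6 lower. Rasgrp3, an exchange factor for Ras and Rap, fell from 6376 ± 388 to 1932 ± 429 normalized counts (log2 fold change -1.72, adjusted p 6.7e-05). Kank2, which binds talin, fell from 551 ± 76.9 to 230 ± 13.3 (-1.26, adjusted p 0.000244). Rap1b, a GTPase that brings talin to the membrane, rose from 3317 ± 220 to 5267 ± 368 (0.67, adjusted p 0.00201). Rap1a, the gene of the related GTPase, went the other way, from 2582 ± 541 to 1770 ± 322 (-0.54, adjusted p 0.0354). Its call was lost in 4 of the 6 fits that leave out a library.

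Of the kinases, exchange factors and GTPases that act after binding, 7 of 27 tested were higher and 6 lower. Fgr, a Src-family kinase of myeloid cells that acts downstream of β2 integrins, fell from 783 ± 54.4 to 347 ± 94.5 (log2 fold change -1.17, adjusted p 0.00148). Kinases of this family moved both ways, and Src (0.67, adjusted p 0.0323) and Fyn (0.60, adjusted p 0.00302) rose. The call of Src was lost in 4 of the 6 fits that leave out a library. Arhgap35 (p190RhoGAP), which turns RhoA off, rose from 704 ± 177 to 1260 ± 223 (0.84, adjusted p 0.00764).

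Among the other adaptors of focal adhesions and podosomes, 6 of 23 tested were higher and 6 lower. Evl, of the same protein family as VASP, fell from 49.2 ± 15.6 to 11.1 ± 6.00 (log2 fold change -2.11, adjusted p 0.00429), whereas Vasp rose. Pdlim7, a LIM protein like zyxin, rose from 579 ± 27.7 to 1194 ± 64.8 (1.04, adjusted p 0.000146), and Sorbs3 (vinexin), which binds vinculin, rose from 50.6 ± 6.89 to 103 ± 11.7 (1.02, adjusted p 0.00847).

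Membrane partners of integrins had 6 of 12 tested genes higher and 3 lower. Plaur, the urokinase receptor, was at 216, 174 and 176 in DMSO and at 939, 1364 and 669 with SKI-II, a log2 fold change of 2.39 (adjusted p 8.7e-05). Slc3a2 (CD98 heavy chain), which binds β tails and is also a subunit of amino acid transporters, was at 29460 in SKI-II replicate 1 but at 12500 and 9544 in the other SKI-II libraries. Its log2 fold change was 1.43 (adjusted p 0.0116) and 0.79 without that library (adjusted p 0.0183). Lrp1, an endocytic receptor, fell from 31264 ± 1433 to 12663 ± 2803 (-1.30, adjusted p 0.000532).

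The traffic genes, which return integrins from endosomes to the surface, had 2 of 17 tested higher and 2 lower. Ehd1, a recycling ATPase, rose from 2426 ± 387 to 4594 ± 192 (log2 fold change 0.92, adjusted p 0.000735). Sharpin, an integrin inhibitor counted in this list and among the inside-out genes, fell from 888 ± 44.1 to 567 ± 57.6 (-0.65, adjusted p 0.00351). Vps35, a subunit of retromer, had a log2 fold change of -0.47 (adjusted p 0.0154), which became 0.0517 with DMSO replicate 2 and 0.0687 with SKI-II replicate 2 left out.

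**Figure D4:**
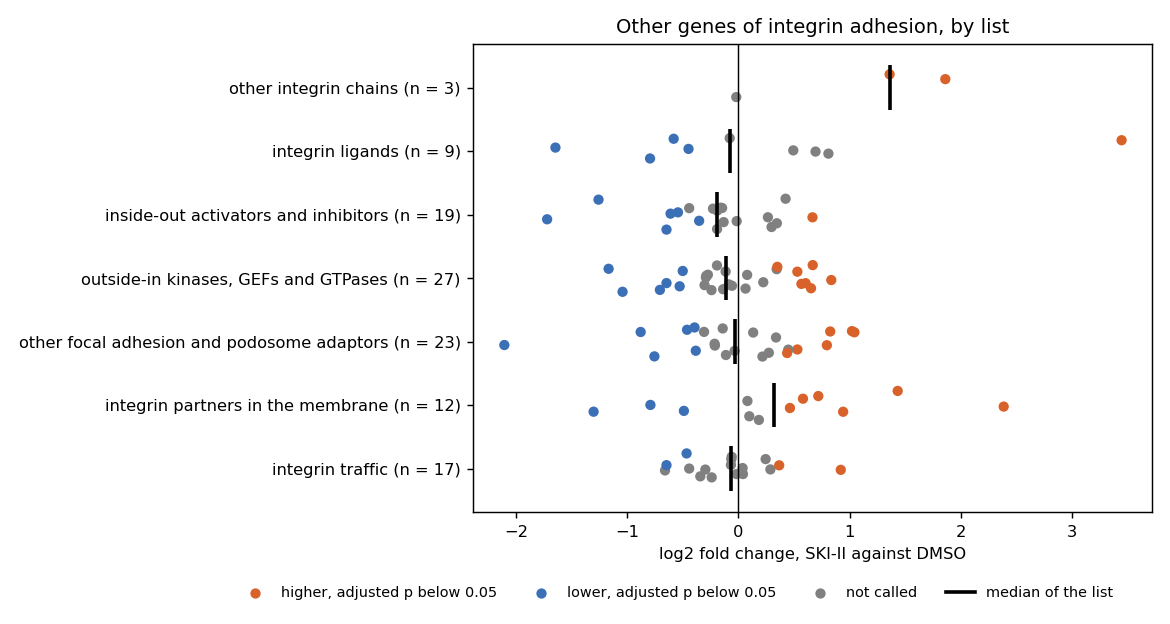
Log2 fold change, SKI-II against DMSO, of each tested gene in the 7 lists of other adhesion genes, with 1 point per gene, the number tested after each list name and a black bar at the list's median (vertical scatter only separates points). Orange points were called higher and blue ones lower. Of the 7 lists only the other integrin chains (2 higher) hold no blue point, and the inside-out list has 6 lower and 1 higher.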

How the data were processed

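RNA was selected with oligo(dT) beads and prepared with the NEBNext Ultra II RNA kit. The submitters' processing notes list Trimmomatic 0.36, STAR 2.5.2b, featureCounts of Subread 1.5.2 and DESeq2. The values used here are the raw counts per Ensembl gene that the authors deposited, which are not normalized. For the counting, the build, annotation and strand setting were not given in the sources used here. GENCODE M21 (GRCm38) gave symbols, positions and merged exon lengths for 49056 of 49315 identifiers, and genes without an entry held 0.0102% of counts.

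Groups came from the labels, and dose and time from the study's methods. Groups were compared by quasi-likelihood testing in edgeR 4.0.16 (R 4.3.3), scaled by TMM and filtered on expression by group (minimum count 10, minimum total 15), and p-values of all 12274 remaining genes were adjusted by Benjamini-Hochberg. Standard errors came from the moderated quasi-likelihood dispersion. For normalized counts, each count was divided by its library's TMM-scaled size, then brought to the mean size. Levels per length are TMM-scaled CPM per kilobase of merged exons. The code was tested on simulated counts.

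The members and all lists were chosen with earlier results of these data known. Values in each library were given for members past a log2 fold change of 1, the 2 most changed called members of each member list and the shared chains and core adaptors, and in each pathway list the 3 genes called with the largest change at a mean of at least 10 normalized counts were named, except a gene that is not reported here. Library values of Itgal, Itgb7, Itga5 and pathway or marker genes, the pair ratios, the order of levels by other lengths and the marker sum without Lyz2 were added after values were seen. Lims2, Rap1a, Src and Fyn were also named after values were seen. Alternatives were DESeq2 1.42.0, limma-voom (limma 3.58.1), other scalings and filters, a replicate block and leaving out each library. Protein sequences were not used here.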

Additional observations from a re-analysis of the deposited data

How the results depend on the processing

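Under the 13 alternatives none of the called members changed direction. Of the 13 called members 7 were called under each alternative (Itgb2, Itgax, Itgb7, Itgb1, Tln2, Bcar1 and Zyx) and 6 lost the call in some, and of the 16 uncalled members 3 (Itgb3, Itgb5 and Actn4) gained it in some. DESeq2, limma-voom and RLE scaling changed no call. Whether the replicate numbers pair the libraries could not be decided from so few libraries. Same-numbered libraries had correlations of deviations of 0.246, 0.00994 and 0.458, and the others ran from -0.462 to 0.296. DMSO replicate 1 correlated best with SKI-II replicate 2 (0.296). Over all tested genes a block by number gave 2765 higher and 2819 lower, against 2255 and 2413 without it. With the number as a block, Itgb3 (adjusted p 0.0122), Itgb5 (0.0204) and Actn4 (0.0424) were also called, Itgb5 as higher and the others as lower. In that fit 2 β1 and αv family chains, 3 ligands and 2 inside-out genes were higher, in place of 1 each. That family count was also 2 with library size alone and with at least 10 counts in every library, and the ligand count 3 with DESeq2. Without a filter 3 adaptors in place of 5 were higher, as Ptk2 (adjusted p 0.0823) and Vasp (0.0561) were not called, and the cause was not tested. That fit had 7 members lower in place of 6, as Itgb3 was also called (adjusted p 0.00335). The share of Itgal differed by 0.0374 points with no division by length, against -0.866, and that of Itgav by 1.89 with no division and by 0.353 with the longest transcript, against -0.0348.

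With 1 library left out, members higher numbered 3 to 8 (fewest without DMSO replicate 2), those below a log2 fold change of -1 numbered 1 to 3 (1 without SKI-II replicate 2), β1 and αv family chains 0 to 2 higher and 1 to 3 lower, and adaptors 2 to 5 higher and 1 to 2 lower. In the other lists, ligands numbered 1 to 3 higher and 1 to 4 lower, inside-out genes 1 to 2 higher, outside-in genes 4 to 6 higher, and traffic genes 1 to 2 higher and 1 to 3 lower. The difference in share of Itgal ran from -1.43 to 0.249 (the latter without SKI-II replicate 1), and that of Itgav from -0.731 to 0.600, with 0.185 without DMSO replicate 1, 0.215 without DMSO replicate 2, 0.0264 without SKI-II replicate 2 and 0.600 without SKI-II replicate 3.

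The design has 3 libraries a group, so shares cannot pass a permutation test. Itgb3 and Itga6 are at low counts and have wide intervals, and the DMSO libraries of Itgb3 also lay far apart.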

Other observations

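The make-up of 4 adaptor families was described after their values had been seen, with no test. Tln1 held 98.5%, 98.6% and 98.2% of the summed talin level per length with DMSO, against 99.3%, 99.1% and 99.0% with SKI-II, and Tln2 held 1.58% ± 0.219 and 0.865% ± 0.134 (SD, n = 3 each). Actn4 was the larger part of the α-actinins, with 65.7% ± 1.97 in DMSO and 64.0% ± 3.07 with SKI-II and overlapping libraries. Of the focal adhesion kinases, Ptk2b held 62.6% ± 3.28 in DMSO and 61.0% ± 0.594 with SKI-II, also with overlap. Parvg, the parvin of blood cells, held 57.6% ± 1.87 of the parvin level in DMSO and 61.9% ± 6.46 with SKI-II, running from 54.8% to 67.4% among the SKI-II libraries, while Parva had 1 count in all 6 libraries.

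Markers of other cell types were mostly at or near 0. The summed endothelial markers were at 304 to 432 normalized counts in DMSO and at 748 to 1862 with SKI-II, nearly all from Vwf, which rose with a log2 fold change of 1.83 (adjusted p 0.00119). The summed T-cell markers were at 97.3 to 116 in DMSO and at 181 to 240 with SKI-II, from Lck, a Src-family kinase that rose (log2 fold change 0.97, adjusted p 0.00412) while Fgr fell. The summed B-cell markers were at 188 to 281 in DMSO and at 4.07 to 6.71 with SKI-II, nearly all of the former from Ighm, which fell (adjusted p 6.9e-06). The fibroblast markers summed to at most 23.6, the neutrophil markers ran from 36.9 to 104 in DMSO and from 30.2 to 112 with SKI-II, mostly from S100a8, and the platelet and megakaryocyte markers from 116 to 203 and from 150 to 300, mostly from Pf4, which was not called, while Gp1ba fell (log2 fold change -1.34, adjusted p 0.0334). The part of such genes in the values of the members was not tested.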
